A study of Mus musculus with 16 samples.

Results

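The genes described here are the microtubule motors of mitral cells, the output neurons of the mouse olfactory bulb: the kinesins, the kinesin light chains, cytoplasmic dyneins 1 and 2 with their shared light chains, and dynactin. They were chosen by name, as every gene on the array called Kif, Klc1 to Klc4, Dync1, Dync2, Dynl or Dctn1 to Dctn6. This gave 65 of the 20124 named genes, 64 of them coding and 1 a pseudogene, read by 88 probes. Of the 65, 49 were bright enough to be tested, against 12035 of all named genes. Another 8 symbols of the RefSeq annotation fit the names but have no named probe and were not analysed here, among them Kif14, Kif28, Dynlt1a and Dynlt1b.

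All cells came from ICR mice and had been electroporated in the uterus at embryonic day 12. Control cells carried pCAG-EYFP alone. Silenced cells carried pCAG-EYFP together with pCAG-Kir2.1, a channel of the inward rectifier potassium family, which makes neurons harder to excite, so both groups share the fluorescent protein and the ubiquitous pCAG promoter. Cells were picked by hand at postnatal day 3 (P3) or postnatal day 6 (P6) and kept only where PCR found EYFP and Pcdh21, the mitral and tufted cell gene now called Cdhr1. Each of the 4 groups (P3 control, P3 Kir2.1, P6 control, P6 Kir2.1) had 4 arrays, each hybridised with pooled, PCR-amplified cDNA of 10 cells, 40 cells a group. The number of animals is not given in the sources used here, so p-values measure only the spread between pools, which may be partly technical.

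Kinesins and dynein turn ATP into steps along microtubules. In axons, whose microtubules point outward, transport kinesins of the Kif1, Kif3 and Kif5 families carry vesicles, mitochondria and mRNA toward the tips, and cytoplasmic dynein 1, working with dynactin, carries cargo back to the cell body. Mitotic kinesins instead build and move the spindle of dividing cells, and a differentiated neuron does not divide. Between P3 and P6 mitral cells prune their dendrites down to a single primary dendrite, a stage at which cargo traffic and the microtubule cytoskeleton are being remodelled.

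Signals are log2 values relative to the 75th percentile of each array, and values of different genes cannot be set against each other. An array had 34.3% to 41.1% of its probes well above background, and the number of arrays limits the precision. All P3 arrays lay on slide 1 and all P6 arrays on slide 2, and control pools lay in row 1 and Kir2.1 pools in row 2 of each slide, so age cannot be told apart from slide, nor treatment from row. Of 12 mitral and tufted cell markers, 10 or 11 were well above background on every array, Tbx21, Eomes and Tbr1 on all 16 and Lhx5 on none. Cdhr1 was also on all 16, but cells had been kept only where PCR found it. The mean log2 signal of the 11 tested markers was higher with Kir2.1 without overlap at both ages. It lay between -0.274 and 0.067 in P3 control and 0.0935 and 0.399 in P3 Kir2.1 pools. At P6 it lay between -0.828 and -0.197 in control and -0.013 and 0.797 in Kir2.1 pools. This separation leans on Reln, whose change was the largest in the list, 2.92 at P3 and 3.89 at P6. The median change of the list was 0.17 at P3 and 0.57 at P6. Taken singly, 3 of the 11 markers were higher without overlap at P3 (27.3%, against 5.89% of all named genes). At P6 1 was higher and 1 lower (18.2%, against 8.08%). Reln was well above background on 1 P6 control array and on 4 arrays of each other group. Markers of bulb interneurons differed between the P6 groups: their mean log2 signal over 14 tested genes lay between -2.94 and -1.22 in P6 control pools and between -5.88 and -3.41 in P6 Kir2.1 pools, with P3 pools between -5.55 and -4.19. These lists may bear on every Kir2.1 comparison below, and their part in the differences was not tested. The summed linear level of the interneuron list was 4.86 to 11.9 in P6 control pools, 2.72 to 5.19 in P6 Kir2.1 pools and 3.04 to 3.91 in P3 pools. Microglial markers summed to 0.419 to 1.93 in P6 control and 0.191 to 0.59 in P6 Kir2.1 pools, and vascular and blood markers to 0.93 to 1.37 and 0.747 to 4.12, with Rgs5 well above background on no array. In such pools fewer cells of a kind and less RNA per cell cannot be told apart.

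The promoter stretches below were picked for holding motifs that were searched and do not stand for the motor genes at large. Among their genes only Kif7 passed the threshold in any comparison, and Kif11 was not tested. The stretches are the 250 bases before the RefSeq start of transcription (GRCm38.p6), 5′ to 3′ on the gene's strand, with each motif found in capitals. The motifs, read on both strands, were TGACG (the short form of the cAMP response element, CRE, bound by the activity-regulated factor CREB), the full CRE TGACGTCA, which contains the short form on either strand, the CCAAT box CCAAT, and the cell cycle homology element TTTGAA. Kif5c, Klc1 and Dctn3 are a kinesin heavy chain, a kinesin light chain and a dynactin subunit whose stretches hold the full CRE. Kif7 is the motor gene past the threshold in the age comparison, and Kif11 is the spindle kinesin Eg5. Their positions are chr2:49619036-49619285 (plus strand) for Kif5c, chr12:111758618-111758867 (plus) for Klc1, chr4:41723164-41723413 (minus) for Dctn3, chr7:79715708-79715957 (minus) for Kif7 and chr19:37376132-37376381 (plus) for Kif11.
Kif5c: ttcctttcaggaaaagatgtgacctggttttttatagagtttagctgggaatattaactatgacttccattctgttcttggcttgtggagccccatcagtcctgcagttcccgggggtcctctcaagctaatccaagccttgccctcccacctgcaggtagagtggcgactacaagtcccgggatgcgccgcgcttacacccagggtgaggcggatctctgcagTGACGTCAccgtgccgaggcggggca
Klc1: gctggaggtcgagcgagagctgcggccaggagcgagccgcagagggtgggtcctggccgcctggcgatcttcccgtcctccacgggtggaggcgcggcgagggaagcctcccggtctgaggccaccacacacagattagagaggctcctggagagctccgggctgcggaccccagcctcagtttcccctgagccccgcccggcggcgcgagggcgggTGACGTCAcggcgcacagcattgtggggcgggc
Dctn3: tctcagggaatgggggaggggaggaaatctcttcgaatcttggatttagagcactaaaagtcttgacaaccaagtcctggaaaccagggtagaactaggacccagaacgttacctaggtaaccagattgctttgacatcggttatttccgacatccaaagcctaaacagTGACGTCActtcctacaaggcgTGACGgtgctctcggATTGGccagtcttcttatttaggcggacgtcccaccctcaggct
Kif7: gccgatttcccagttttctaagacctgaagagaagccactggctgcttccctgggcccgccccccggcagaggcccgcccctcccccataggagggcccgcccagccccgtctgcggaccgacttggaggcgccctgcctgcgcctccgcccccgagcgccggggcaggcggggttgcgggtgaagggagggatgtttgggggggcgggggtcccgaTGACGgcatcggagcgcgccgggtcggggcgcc
Kif11: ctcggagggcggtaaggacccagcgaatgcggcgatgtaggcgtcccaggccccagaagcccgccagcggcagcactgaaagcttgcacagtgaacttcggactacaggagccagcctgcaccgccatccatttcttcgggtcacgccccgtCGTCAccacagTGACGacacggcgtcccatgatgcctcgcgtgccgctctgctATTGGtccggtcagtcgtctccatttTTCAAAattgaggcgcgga

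RefSeq stretches were found for 50 of the 65 genes, 57 stretches in all since some genes have several starts. The short CRE stood in 23 of the 57 (40.4%), against 17.8% of all 32851 RefSeq stretches of the same length. Transport kinesins held it in 7 of 13 stretches and mitotic kinesins in 7 of 11. The full CRE stood in 4 of the 57 (7.02%, against 1.55% of all), those of Kif5c, Kif17, Klc1 and Dctn3. The CCAAT box stood in 7 of 11 mitotic stretches (63.6%) and 4 of 13 transport stretches (30.8%), against 33.8% of all. The cell cycle homology element stood in 4 of 11 mitotic stretches (36.4%) and 1 of 13 transport stretches (7.69%), against 16% of all. Dync1i1, with the lowest p with Kir2.1 at P6, held none of the 4 motifs, nor did the stretches of Kif2a. Kif21b, with the lowest p at P3, had no stretch to search. These counts describe letters in a window and were not tested.

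Transport kinesins were seen throughout the mitral cell pools and mitotic kinesins mostly were not seen. Of 17 transport kinesins, 14 had a probe well above background on all 16 arrays, and between 14 and 16 of them were seen on each array. Of 12 mitotic kinesins none was seen on all arrays, 6 were seen on no array, and 0 to 3 were seen on each array. The highest count of mitotic kinesins on an array, 3, lay well under the lowest count of transport kinesins, 14, in every group. Among all named genes, 32.8% were well above background on all arrays and 23.9% on none. All mitotic kinesins but Kif2c were read by a single probe, and a dark probe does not show that a transcript is absent. The second probes of Kif5a, Kif26a and Klc3 were well above background on no array, though their first probes were on all 16. The plot of detection by class shows each gene's count of arrays.

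**Figure D1:**
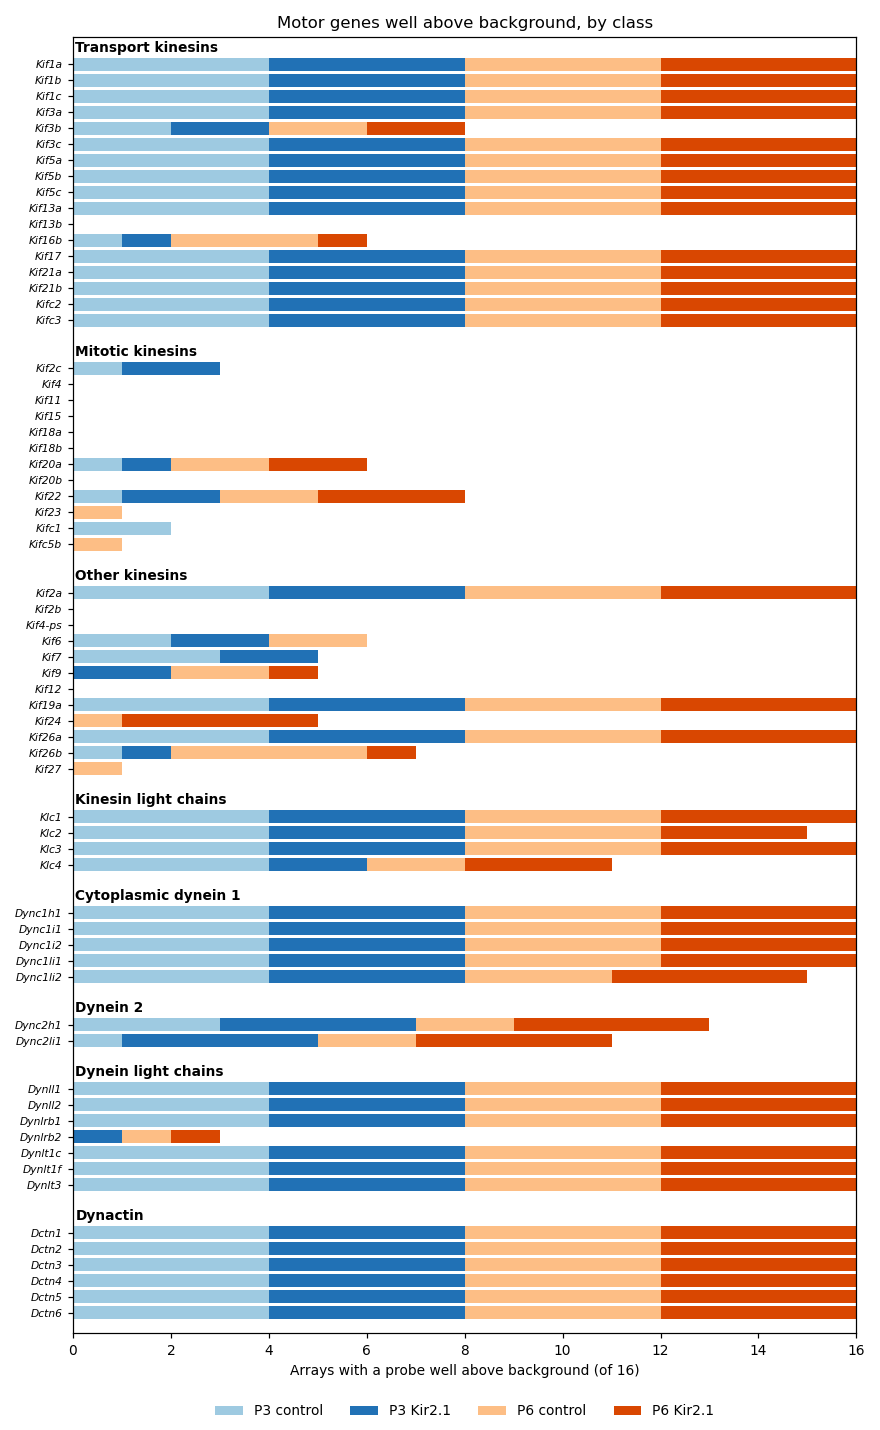
Number of the 16 arrays on which at least 1 probe of each of the 65 motor genes was well above background, stacked by group (4 arrays each) and ordered by class. Dynactin, dynein 1 and most transport kinesins reach or nearly reach 16, while mitotic kinesins reach 8 at most.

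The mitotic kinesins seen on no array were Kif4, a chromosome-arm motor, Kif11 and Kif15, which push spindle poles apart, Kif18a and Kif18b, which shorten spindle microtubules, and Kif20b. Kif23, a subunit of centralspindlin in the dividing cell's midzone, and Kifc5b were each well above background on 1 P6 control array. The near-identical sequences of Kifc5b and Kifc1 leave their separate signals uncertain. Kifc1, a minus-end-directed spindle motor, was seen in P3 control pools 2 (-4.54) and 4 (-3.09) and lay between -10.53 and -8.24 elsewhere. Kif2c, the centromere depolymerase MCAK, was seen on 3 arrays, all at P3, at -5.56 in control pool 1 and at -6.59 and -4.65 in Kir2.1 pools 3 and 4.

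Kif22, a chromosome-arm motor, was the mitotic kinesin seen most often, on 8 arrays. It read -9.54, -8.92, -7.89 and -3.45 in P3 control pools 1 to 4, -9.76, -1.90, -4.71 and -9.46 in P3 Kir2.1 pools, -10.28, -9.20, -4.83 and -4.28 in P6 control pools, and -1.98, -1.85, -8.45 and -3.87 in P6 Kir2.1 pools. Every group held both bright and dark pools, and all groups overlapped. Kif20a, which works at the spindle midzone, was seen on 6 arrays, 1 or 2 in each group, at -6.57 in P3 control pool 1, -4.84 in P3 Kir2.1 pool 3, -3.37 and -5.08 in P6 control pools 1 and 2, and -3.53 and -6.57 in P6 Kir2.1 pools 2 and 4. Their within-group SDs, 3.20 for Kif22 and 2.48 for Kif20a, were far wider than the median of 0.48 over the 34 motor genes measured on all arrays. Of 14 other markers of dividing cells, 2 to 8 were seen on each array, Pcna on all 16 and Cenpf on none.

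No motor gene passed the threshold with Kir2.1 at either age. At P3, limma with Benjamini-Hochberg adjustment called 0 of 49 motor genes, against 0.00831% of all named genes (1 gene). At an unadjusted p under 0.05 there were 6 motor genes (12.2%), against 6.07% of all. At P6 the count was 0 of 49, against 1.8% of all named genes, and 5 at the unadjusted threshold (10.2%) against 17.2%. For the mean of both ages it was 0, against 0.706% of all, and 7 (14.3%) against 12.9%. For the interaction, that is, whether the Kir2.1 change differed between ages, it was 0 against 0.0748%, and 6 (12.2%) against 10.5%. A p that misses the threshold does not show that a level did not change.

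Counting genes whose 4 control and 4 Kir2.1 pools did not overlap gave 6 of 49 at P3 (12.2%), against 5.89% of all named genes, and 4 of 49 at P6 (8.16%), against 8.08%. At P3 there were 5 lower ones, Kif21b, Kif5c, Kifc3, Dynll2 and Klc4 (background 3.22%), and 1 higher, Dynlrb1 (background 2.68%). At P6 there were 3 lower, Kif1a, Dync1i1 and Kif19a (background 5.01%), and 1 higher, Klc1 (background 3.07%). No gene was in both sets, and none of the 49 was separated in the same direction at both ages (background 0.59%). The median change of the 49 was -0.23 at P3, beside -0.10 for all named genes, and -0.04 at P6, beside -0.09. The median of the interaction was 0.34, beside 0.04. The plot of Kir2.1 changes shows all 49 with their intervals.

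**Figure D2:**
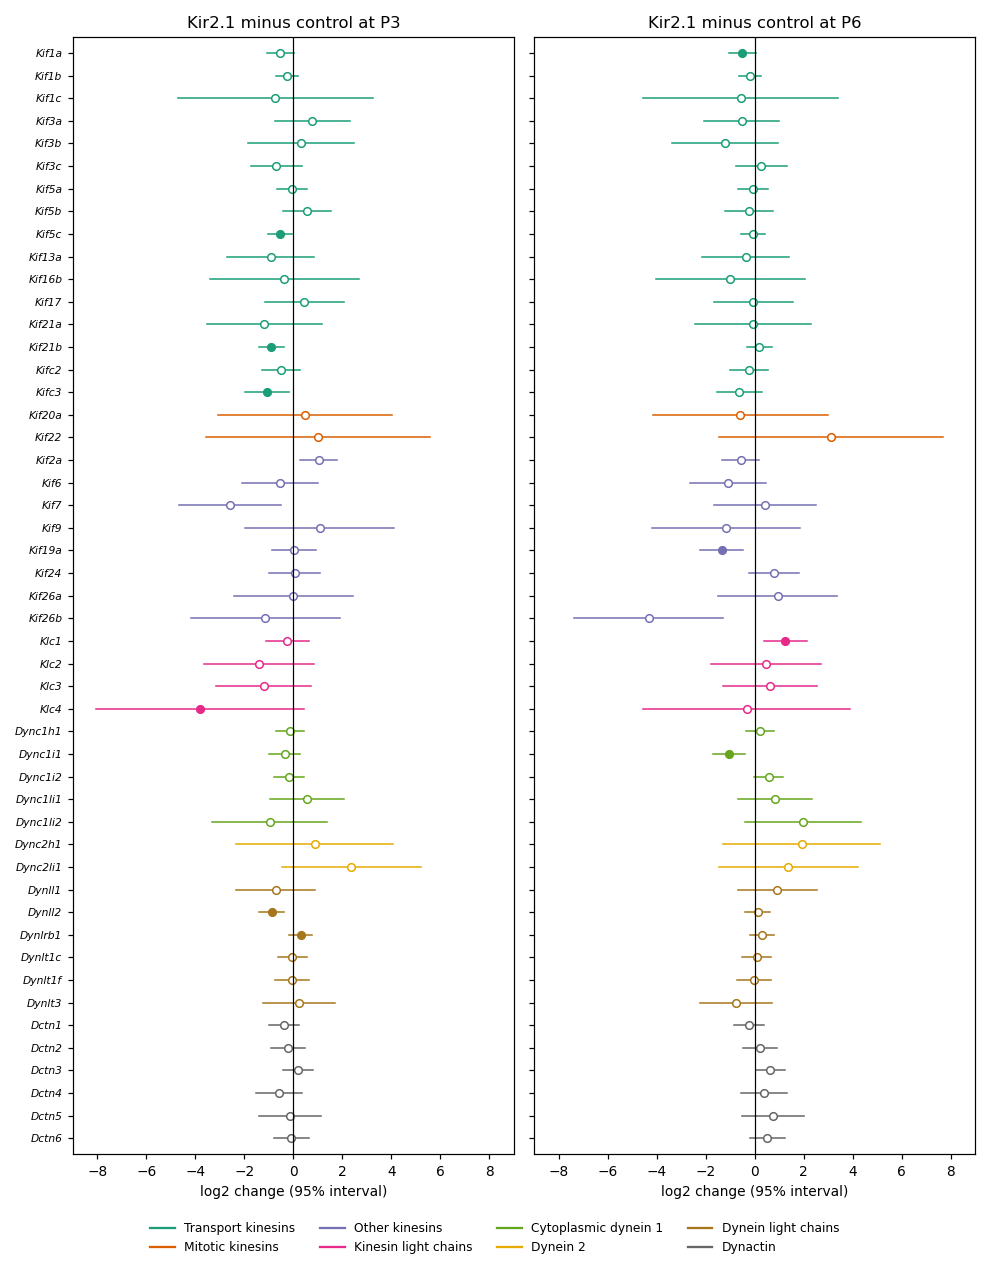
Change with Kir2.1 (log2, Kir2.1 minus control) at P3 (left) and P6 (right) for the 49 tested motor genes, with 95% intervals from the limma fit, coloured by class. Filled points are genes whose 4 control and 4 Kir2.1 pools did not overlap; most intervals cross 0, and those of genes not seen on every array, such as Kif22 and Klc4, are several log2 units wide.

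Among transport kinesins, 16 tested, the change was below 0 in 12 at P3 and in 14 at P6, beside 55.6% and 53.7% of all named genes, and none passed the threshold at either age. For the mean of both ages it was below 0 in 13, beside 56.1%. Their median change was -0.53 at P3 and -0.24 at P6. These counts rest on 1 probe a gene. Other probes of Kif1a (well above background on 9 arrays) and Kif1c (13 arrays) changed by 2.67 and 0.48 at P3. Another Kif3a probe (12 arrays) changed by -1.36, against a change above 0 with the probe used. At P6 these other probes of Kif1a, Kif1c and Kif3a changed by -2.63, 0.36 and 0.93. The same genes measured at both ages are not independent of each other, and no test of the list was made.

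Kif21b, a processive kinesin that also pauses microtubule growth in dendrites, had the lowest p at P3. Control pools read 1.56, 1.78, 2.05 and 1.77, and Kir2.1 pools 1.03, 0.72, 0.72 and 1.07. The highest Kir2.1 pool was below the lowest control pool, a difference of -0.90 (SE 0.23, 0.535-fold, adjusted p = 0.366 by limma). At P6 the order was gone: controls read 1.46, 1.25, 1.28 and 0.95 and Kir2.1 pools 1.45, 1.12, 1.96 and 1.17 (0.19, SE 0.23, adjusted p = 0.72). The difference between these 2 changes was 1.09 (SE 0.33, adjusted p = 0.23), the lowest p for the interaction among motor genes.

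Kif5c is one of 3 heavy chains of conventional kinesin, the workhorse of anterograde axonal transport, and its promoter with a full CRE is shown above; Kif5a and Kif5b had no stretch to search. At P3 it read 0.34, 0.65, 0.30 and 0.39 in control pools and -0.39, 0.01, -0.11 and -0.04 in Kir2.1 pools. Controls lay above all Kir2.1 pools (-0.55, SE 0.23, 0.682-fold, adjusted p = 0.704). At P6 the groups overlapped, with controls at 1.16, 1.18, 0.25 and 0.92 and Kir2.1 pools at 0.82, 0.68, 0.79 and 0.92 (-0.07, SE 0.23, adjusted p = 0.907). The other heavy chains did not separate the groups: Kif5a changed by -0.04 at P3 (95% interval -0.66 to 0.57) and by -0.07 at P6 (-0.69 to 0.54), and Kif5b by 0.56 (-0.42 to 1.55) and -0.23 (-1.22 to 0.75). Kif5a had group means of 1.91 ± 0.12, 1.87 ± 0.33, 2.06 ± 0.49 and 1.98 ± 0.40 in P3 control, P3 Kir2.1, P6 control and P6 Kir2.1 (SD, n = 4 pools), and Kif5b, in the same order, -4.81 ± 0.42, -4.25 ± 0.73, -4.11 ± 0.61 and -4.34 ± 0.77.

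Kif1a, the fast carrier of synaptic vesicle precursors, stood lower with Kir2.1 at both ages by about the same amount. P6 control pools read 3.21, 3.25, 3.18 and 3.83, and P6 Kir2.1 pools 2.73, 2.96, 2.88 and 2.87. Every P6 Kir2.1 pool lay below every control pool (-0.50, SE 0.26, 0.705-fold, adjusted p = 0.33). With the scaling taken over all probes the Kif1a change was -0.29. P3 controls read 3.1, 2.84, 3.33 and 2.93 and P3 Kir2.1 pools 3.16, 2.03, 2.37 and 2.50, overlapping through Kir2.1 pool 1 (-0.54, SE 0.26, adjusted p = 0.783). The mean of both ages was -0.52 (SE 0.18, adjusted p = 0.223). A second Kif1a probe, well above background on 9 arrays, gave 2.67 at P3 and -2.63 at P6 and correlated with the first at -0.23 over the 16 arrays, so the P3 direction rests on the brighter probe.

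Kifc3, a minus-end-directed kinesin of the C-terminal motor family, read -2.22, -1.87, -1.98 and -2.00 in P3 control pools and -3.37, -3.41, -3.00 and -2.63 in P3 Kir2.1 pools. The groups did not overlap (-1.08, SE 0.42, 0.472-fold, adjusted p = 0.649). At P6 it read -0.58, -2.02, -1.94 and -1.95 in controls and -1.85, -3.01, -1.20 and -2.92 with Kir2.1 (-0.62, SE 0.42, adjusted p = 0.471). For the mean of both ages the change was -0.85 (SE 0.30, adjusted p = 0.226). Kifc2, its close relative in neurons, changed by -0.51 at P3 (SE 0.36, adjusted p = 0.867) and by -0.24 at P6 (SE 0.36, adjusted p = 0.782), and its groups overlapped at both ages.

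The remaining tested transport kinesins had overlapping control and Kir2.1 pools at both ages. Kif1b, which carries mitochondria and synaptic vesicle precursors, had group means of 0.90 ± 0.18, 0.65 ± 0.22, 0.88 ± 0.27 and 0.69 ± 0.20 in P3 control, P3 Kir2.1, P6 control and P6 Kir2.1. The heterotrimeric kinesin-2 motors Kif3a, Kif3b and Kif3c, which drive transport in cilia and axons, changed by 0.77, 0.31 and -0.70 at P3 and by -0.53, -1.21 and 0.26 at P6, with the lowest adjusted p of these 6 values being 0.572. Kif3a stood at -2.03 ± 0.80, -1.26 ± 1.06, -0.75 ± 1.45 and -1.28 ± 0.75 in the 4 groups in that order, Kif3c at -2.63 ± 0.66, -3.34 ± 0.70, -3.53 ± 0.28 and -3.27 ± 0.95, and Kif3b, seen on 7 arrays by the probe used, at -7.04 ± 0.98, -6.73 ± 2.17, -7.59 ± 1.41 and -8.81 ± 1.19. A second Kif3a probe, well above background on 12 arrays, gave the opposite signs, -1.36 at P3 and 0.93 at P6. It correlated with the first at -0.33. Kif17, the dendritic carrier of NMDA receptor subunits, had means of -3.46 ± 0.33, -3.02 ± 1.32, -2.58 ± 1.20 and -2.63 ± 1.27. Kif21a spread widely, from -1.75 to -0.97 in 3 P3 controls against -5.40 in pool 4, and its changes of -1.18 at P3 and -0.06 at P6 had an SE of 1.09. Kif13b, which carries phosphoinositide-bearing vesicles, was the transport kinesin seen on no array.

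**Figure D3:**
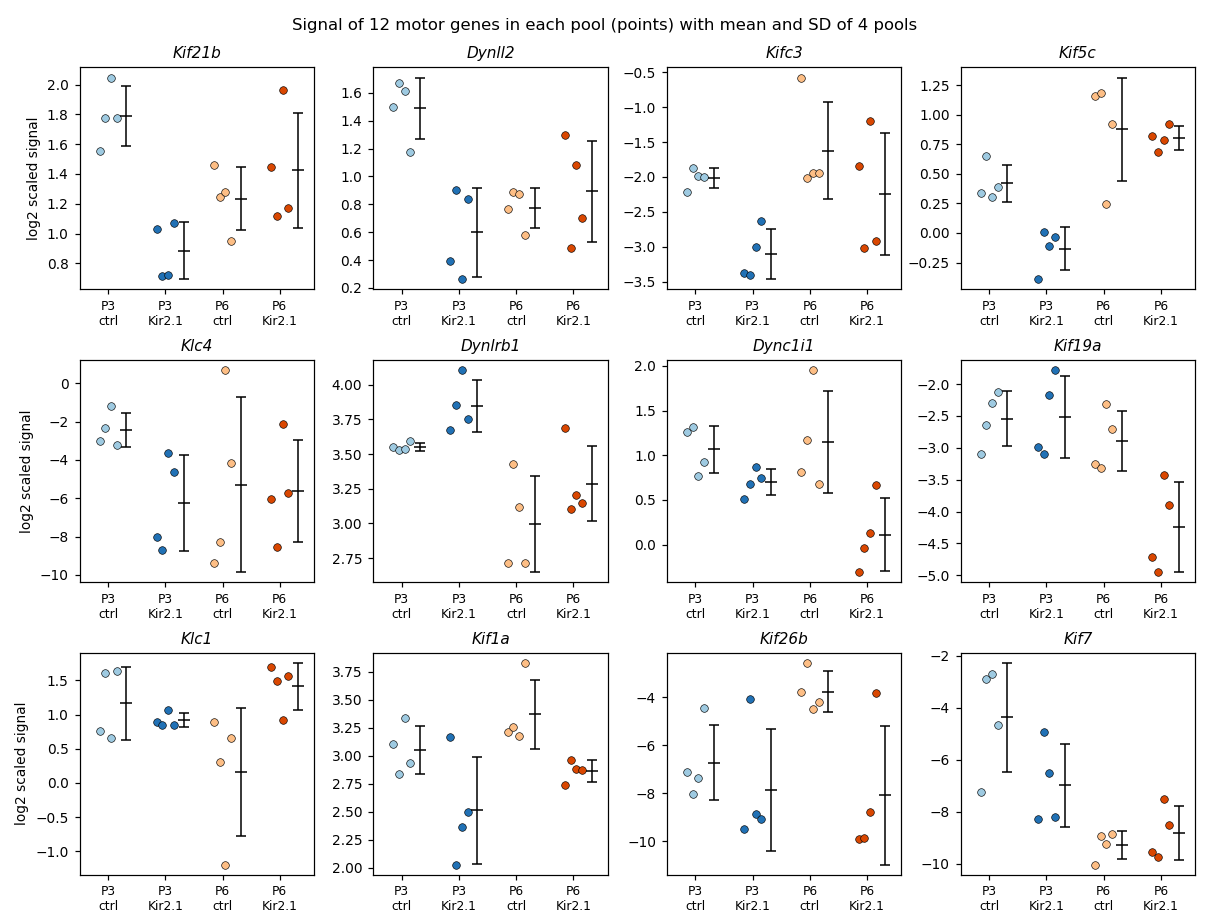
Log2 scaled signal of 12 motor genes in each of the 16 pools (points), with the mean and SD of the 4 pools of a group beside them. The first 6 panels are the genes whose P3 groups did not overlap, the next 4 those whose P6 groups did not overlap, and the last 2 Kif26b and Kif7; the vertical scale differs between panels.

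The kinesin light chains, which couple Kif5 heavy chains to cargo, all changed below 0 at P3 (4 of 4), beside 55.6% of all named genes. At P6, 3 of 4 changed above 0, while 53.7% of all named genes changed below 0. No light chain passed the threshold. Klc1, the main neuronal light chain, read 0.89, 0.30, -1.19 and 0.66 in P6 control pools and 1.69, 1.49, 0.92 and 1.56 in P6 Kir2.1 pools. All Kir2.1 pools lay above all controls (1.25, SE 0.41, adjusted p = 0.131), the nearest pools being Kir2.1 pool 3 and control pool 1. Without control pool 3 the Klc1 change was 0.80 (adjusted p = 0.194), and without the 4 P6 pools high in microglial or vascular markers 0.76 (adjusted p = 0.467). A second Klc1 probe, well above background on 5 arrays, gave -0.39 at P6, and the mean of both probes 0.43 (adjusted p = 0.774). At P3 it read 0.76, 1.60, 0.66 and 1.64 in controls and 0.89, 0.85, 1.07 and 0.85 with Kir2.1 (-0.25, SE 0.41, adjusted p = 0.551). The interaction of Klc1 was 1.5 (SE 0.58, adjusted p = 0.358), and 0.28 with the mean of both probes.

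Klc4, a light chain with a less studied role in neurons, read -3.03, -2.32, -1.19 and -3.20 in P3 controls and -8.03, -8.73, -3.63 and -4.62 in P3 Kir2.1 pools. The groups did not overlap, but 2 of the 4 Kir2.1 arrays were not well above background and the fitted change of -3.82 had an SE of 1.97 (adjusted p = 0.81) and was -1.87 with normexp background correction. P6 pools of both groups spread from -9.37 to 0.69. Klc2 had means of -3.00 ± 0.84, -4.40 ± 1.03, -4.96 ± 1.55 and -4.49 ± 2.34 in P3 control, P3 Kir2.1, P6 control and P6 Kir2.1, and its changes of -1.41 and 0.47 had an SE of 1.04.

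Cytoplasmic dynein 1 was measured through 5 genes, 4 of them well above background on all 16 arrays. Its intermediate chain Dync1i1 was the gene of this complex whose control and Kir2.1 pools did not overlap, at P6. Dync1h1, the heavy chain that holds the motor, had means of 1.24 ± 0.36, 1.11 ± 0.24, 1.14 ± 0.38 and 1.35 ± 0.30 in P3 control, P3 Kir2.1, P6 control and P6 Kir2.1. Its changes with Kir2.1 were -0.13 at P3 (95% interval -0.70 to 0.44) and 0.21 at P6 (-0.36 to 0.78).

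Dync1i1 is the intermediate chain expressed mainly in neurons, where it links the motor to dynactin. P6 control pools read 0.81, 1.17, 1.95 and 0.68, and P6 Kir2.1 pools -0.31, -0.04, 0.13 and 0.67. The Kir2.1 pools lay below all controls, pool 4 just under the lowest control, and the change was -1.04 (SE 0.30, adjusted p = 0.0884 by limma), the lowest p of any motor gene at P6. P3 controls read 1.26, 1.31, 0.77 and 0.93 and P3 Kir2.1 pools 0.51, 0.68, 0.87 and 0.75, which overlap (-0.36, SE 0.30, adjusted p = 0.902). The mean of both ages was -0.70 (SE 0.21, adjusted p = 0.153). A second probe of Dync1i1, on all 16 arrays, gave -0.45 at P3 and -1.01 at P6 and correlated with the first at 0.98. Without the 4 P6 pools in which microglial or vascular markers stood high (control pools 1 and 3, Kir2.1 pools 1 and 2), the P6 change was -0.52 (adjusted p = 0.532) and the mean of both ages -0.44 (adjusted p = 0.41). The interneuron markers given above were also lower in P6 Kir2.1 than in P6 control pools, and their part in this difference was not tested.

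Dync1i2, the broadly expressed intermediate chain, stood on the other side at P6, with means of -0.66 ± 0.57 in control and -0.09 ± 0.29 in Kir2.1 pools (0.57, SE 0.28, adjusted p = 0.307), and at -0.45 ± 0.09 and -0.64 ± 0.27 at P3 (-0.19, SE 0.28). The light intermediate chains Dync1li1 and Dync1li2, which bind cargo adaptors, changed by 0.83 (SE 0.70) and 1.97 (SE 1.10) at P6, and neither passed the threshold. Dynein 2, the retrograde motor of cilia, was seen less often: its heavy chain Dync2h1 on 13 arrays and its light intermediate chain Dync2li1 on 11. Dync2li1 was well above background on 1 P3 control, 4 P3 Kir2.1, 2 P6 control and 4 P6 Kir2.1 arrays, and its changes of 2.36 at P3 (SE 1.32, adjusted p = 0.83) and 1.37 at P6 (SE 1.32, adjusted p = 0.63) did not pass.

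Of 7 dynein light chain genes, 6 were well above background on all 16 arrays and Dynlrb2, the roadblock chain known from motile cilia, on 3. Dynll2, an LC8 light chain that dynein shares with myosin V, read 1.5, 1.67, 1.61 and 1.18 in P3 control pools and 0.39, 0.90, 0.26 and 0.84 in P3 Kir2.1 pools. The groups did not overlap (-0.89, SE 0.24, adjusted p = 0.414). P6 controls read 0.76, 0.89, 0.88 and 0.58 and P6 Kir2.1 pools 1.29, 0.49, 1.08 and 0.71 (0.12, SE 0.24, adjusted p = 0.848), and the interaction was 1.01 (SE 0.34, adjusted p = 0.292). A second Dynll2 probe, also on all 16 arrays but dimmer, gave -0.04 at P3 and -1.06 at P6 and correlated with the first at 0.21, so the P3 difference was seen by 1 of 2 probes. With the mean of both probes, the interaction was -0.0091.

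Dynll1, the other LC8 chain, had means of -3.46 ± 1.02, -4.18 ± 0.50, -4.26 ± 1.39 and -3.34 ± 1.30 in P3 control, P3 Kir2.1, P6 control and P6 Kir2.1. Dynlrb1, the widely expressed roadblock chain, was tight in P3 controls at 3.55, 3.53, 3.54 and 3.59, and read 3.68, 3.85, 4.10 and 3.75 in P3 Kir2.1 pools. The small separation of 0.29 (SE 0.22) had an adjusted p of 0.881 and was 0.19 after quantile normalization. The Tctex chains Dynlt1c and Dynlt1f, near-identical copies whose signals may mix, changed by -0.05 each at P3 and by 0.08 and -0.04 at P6.

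**Figure D4:**
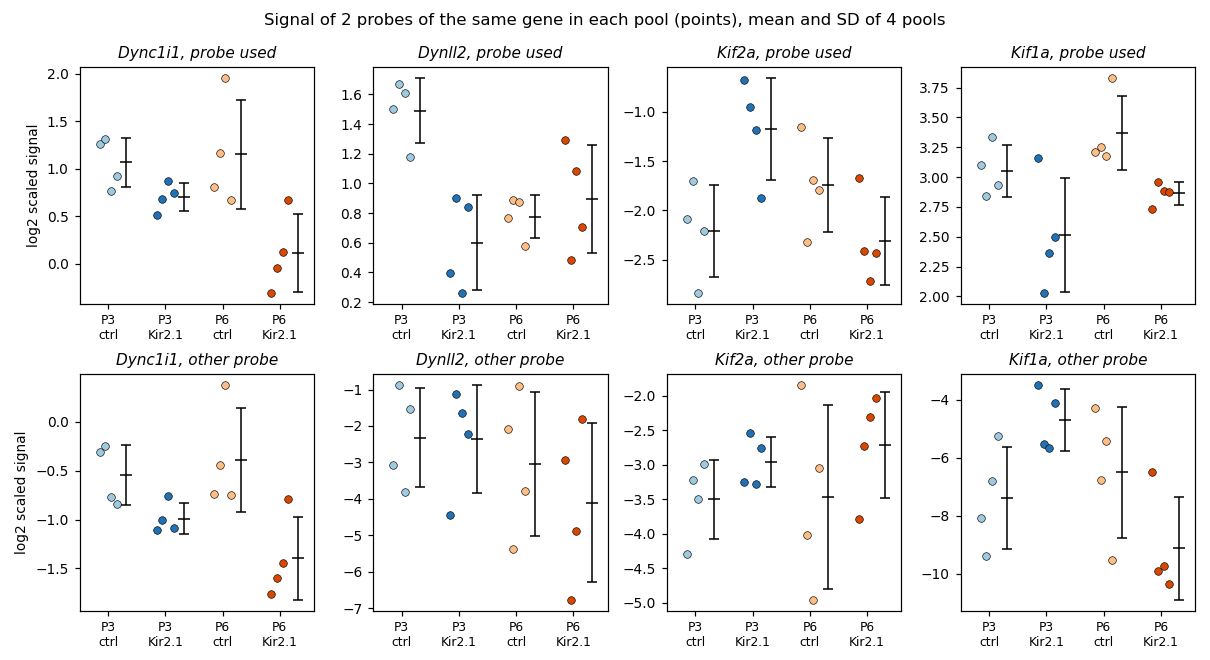
Log2 scaled signal in each pool for 2 probes of the same gene, the probe used (upper row) and another probe (lower row), with mean and SD of 4 pools. The 2 Dync1i1 probes run in parallel; those of Dynll2, Kif2a and Kif1a do not.

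Dynactin, the multi-subunit activator that lets dynein walk long distances, was measured through its 6 Dctn genes, all well above background on all 16 arrays. Its Arp1, Arp11 and capping protein subunits are among the adaptors described last. Of the 6, 5 changed below 0 at P3, beside 55.6% of all named genes, with changes from -0.61 to 0.18. At P6, 5 changed above 0, while 53.7% of all named genes changed below 0, with dynactin changes from -0.23 to 0.74. None of the 6 passed the threshold, and the lowest adjusted p of a dynactin interaction was 0.607 by limma. Dctn1, the p150 subunit that grips the microtubule, had means of 1.20 ± 0.07, 0.82 ± 0.24, 1.20 ± 0.51 and 0.97 ± 0.44 in P3 control, P3 Kir2.1, P6 control and P6 Kir2.1 (changes of -0.38 and -0.23, SE 0.29). Dctn3, the p24 subunit of the shoulder, whose promoter with a full CRE is shown above, read 1.68, 0.87, 1.96 and 1.57 in P6 controls and 2.27, 2.73, 1.73 and 1.91 in P6 Kir2.1 pools. The pools overlapped (0.64, SE 0.28, adjusted p = 0.256), and without control pool 2 the Dctn3 change was 0.42. At P3 Dctn3 changed by 0.18 (SE 0.28).

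Of the other kinesins, a mixed class of depolymerases, ciliary motors and kinesins of other roles, 8 of 12 were tested. Kif2a, a microtubule depolymerase that limits the growth of axon collaterals, read -2.08, -1.71, -2.84 and -2.21 in P3 controls and -0.68, -0.95, -1.19 and -1.88 in P3 Kir2.1 pools. Kir2.1 pools were higher apart from pool 4, which lay below control pool 2 (1.04, SE 0.35, adjusted p = 0.596). At P6 the sign was opposite, with controls at -1.16, -2.32, -1.69 and -1.80 and Kir2.1 pools at -1.67, -2.41, -2.72 and -2.43 (-0.57, SE 0.35, adjusted p = 0.429). The interaction was -1.60 (SE 0.50, adjusted p = 0.245). Another Kif2a probe, on all 16 arrays, gave 0.54 at P3 and 0.75 at P6 and correlated with the first at 0.02, so the opposite sign at P6 was not seen by both.

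Kif19a, known in mouse for trimming the microtubules of motile cilia, read -3.25, -3.31, -2.31 and -2.70 in P6 control pools and -4.71, -4.94, -3.43 and -3.89 in P6 Kir2.1 pools. All Kir2.1 pools lay below all controls (-1.35, SE 0.41, adjusted p = 0.109). Without the 4 P6 pools high in microglial or vascular markers, which left 2 pools a group, the Kif19a change was -0.65 (adjusted p = 0.625). At P3 the means were -2.54 ± 0.43 and -2.51 ± 0.64 (0.03, SE 0.41), and the interaction was -1.38 (SE 0.58, adjusted p = 0.414), or -0.68 without those pools. Of 8 markers of multiciliated cells, 3 to 5 were well above background on each P6 array of both groups, with Dnah9 on none. Their summed level was 0.166 to 0.526 in P6 controls and 0.169 to 0.315 with Kir2.1, and its part in the Kif19a difference was not tested.

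Kif26b, a kinesin without known ATPase activity that is linked to non-canonical Wnt signalling, read -3.77, -2.56, -4.50 and -4.21 in P6 controls and -9.89, -9.86, -8.76 and -3.83 in P6 Kir2.1 pools. It was well above background on 4 of 4 control arrays and 1 of 4 Kir2.1 arrays, and the bright Kir2.1 pool 4 lay within the control range (-4.32, SE 1.41, adjusted p = 0.132). Without that pool no remaining Kir2.1 array was well above background and the adjusted p was 0.0461, a call that rests on leaving out the pool that differs from the others. With normexp background correction the change over all pools was -1.27 (adjusted p = 0.109). At P3 Kif26b was seen on 1 array of each group. For the mean of both ages the change was -2.73 (SE 1.00, adjusted p = 0.248).

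Between P3 and P6 the motor gene past the threshold was Kif7, in control cells. In controls, 1 of 49 passed the threshold, lower at P6, against 2.64% of all named genes (1.32% lower). At an unadjusted p under 0.05 there were 8 (16.3%), against 18%. The control pools of P3 and P6 did not overlap for 9 genes (18.4%), against 12.6% of all, with 8 lower at P6, Dctn4, Dctn6, Dync1li2, Dynll2, Dynlrb1, Kif21b, Kif3c and Kif7 (background 6.2%), and 1 higher, Kifc2 (background 6.41%). All 6 dynactin genes and 4 of 4 kinesin light chains had changes below 0, beside 53.3% of all named genes. The dynactin changes ran from -0.80 to -0.0027, the last being Dctn1. An unadjusted p under 0.05 by limma was reached by 1 of the 6 dynactin genes and 1 of the 4 light chains. In Kir2.1 cells 0 of 49 passed, against 0.956% of all, with 6 at an unadjusted p under 0.05 (12.2%, against 14.2%) and 3 without overlap (6.12%, against 8.35%), Kif5c and Kif21b higher (background 3.61%) and Kif19a lower (background 4.74%). The medians over the 49 were -0.22 in control and 0.11 in Kir2.1 cells, beside -0.08 for all named genes in each. Every age difference coincides with the change of slide.

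Kif7, a ciliary kinesin that organises the tip compartment where Gli factors of the Hedgehog pathway gather, fell from P3 to P6 in control cells. P3 control pools read -7.22, -2.88, -2.69 and -4.65, and P6 control pools -10.02, -8.91, -9.22 and -8.85. It was well above background on 3 of 4 P3 control arrays and on none of the 8 P6 arrays, and the groups did not overlap. The measured means were -4.36 ± 2.1 and -9.25 ± 0.54. The fitted difference was -4.89 (95% interval -6.98 to -2.81, adjusted p = 0.018 by limma). Since Kif7 was dark at P6, the P3 mean, dark pool 1 included, was also set against a floor. The floor was the dimmest signals still well above background on the P6 arrays. This gave 9.33-fold, a floored estimate and not a lower limit. All 5 arrays on which Kif7 was well above background were at P3. It thus entered the test only through the age at which it stood high. P3 Kir2.1 pools read -8.28, -4.91, -6.49 and -8.18, well above background on 2 of 4 arrays, and P6 Kir2.1 pools -9.53, -9.73, -7.50 and -8.49. The fitted age difference of Kif7 in Kir2.1 cells was -1.85 (95% interval -3.93 to 0.24, adjusted p = 0.397 by limma). By the same floored estimate it was 1.89-fold.

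The Kif7 call was lost under several alternatives. The direction was kept under each that tested Kif7. Those alternatives reuse the same arrays, and Kif7 was well above background only at P3, so the kept direction is no separate support. The measured difference, -4.89 in the fit, was -4.40 without P3 control pool 2 (adjusted p = 0.0556) and -4.34 without pool 3 (0.0644). It stayed at -4.89 with the control arrays fitted alone (0.0709) and was -4.52 without 4 P6 pools in which microglial or vascular markers stood high (0.131). With normexp background correction, whose offset of 50 narrows differences between dim signals by construction, it was -1.36 (0.0742), a smaller difference than the floored estimate of 9.33-fold. The second Kif7 probe was not well above background on any array. At P3 the Kir2.1 change of Kif7 was -2.61 (SE 0.97, adjusted p = 0.625), with overlapping pools, and -1.10 with normexp. Astrocyte and radial glia markers summed to 1.15 to 3.12 in P3 controls and to 9.3 to 12.5 in P6 controls. Most of this sum was Fabp7, at 0.08 to 1.55 in P3 and 2.87 to 3.57 in P6 controls (log2). All 8 tested markers of the list had age changes above 0 in controls. Their part in the Kif7 difference was not tested.

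The other age differences with low p did not pass. Kif5c stood higher at P6 in Kir2.1 cells without overlap (0.94, SE 0.23, adjusted p = 0.0797) and by 0.46 in control cells (SE 0.23, adjusted p = 0.321). Kif19a stood lower at P6 in Kir2.1 cells, again without overlap (-1.73, SE 0.41, adjusted p = 0.073, and -1.15 without P6 Kir2.1 pools 1 and 2 and P6 control pools 1 and 3), and by -0.35 in controls (SE 0.41). Kifc2 was higher at P6 in both, by 0.99 in controls (SE 0.36, adjusted p = 0.164) and by 1.27 with Kir2.1 (SE 0.36, adjusted p = 0.121). Its pools read -0.30, 0.33, -0.59 and 0.37 in P3 controls, -0.91, -0.57, 0.23 and -0.99 in P3 Kir2.1, 0.66, 0.90, 0.57 and 1.66 in P6 controls and 0.09, 1.01, 0.95 and 0.78 in P6 Kir2.1, so the ages did not overlap in controls and overlapped through 1 pool at each age with Kir2.1. Dynlrb1 was lower at P6 by the same -0.56 in controls (SE 0.22, adjusted p = 0.204) and in Kir2.1 cells (adjusted p = 0.255), and by -0.32 and -0.31 after quantile normalization. Dynll2 (-0.71, adjusted p = 0.136) and Klc1 (-1, adjusted p = 0.213) were lower at P6 in controls, Klc1 by -0.55 without P6 control pool 3. Kif2a was lower at P6 in Kir2.1 cells (-1.13, adjusted p = 0.149), but its other probe on all arrays gave 0.24 and the mean of its tested probes -0.45.

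Motor adaptors and regulators, the proteins that tie motors to cargo or switch them on, were taken as a list of 51 genes on the array, 48 of them tested. At P6 1 of 48 passed, higher with Kir2.1, against 1.8% of all named genes, and 12 (25%) had an unadjusted p under 0.05, against 17.2%. Control and Kir2.1 pools did not overlap at P6 for 4 of 48 (8.33%), near the 8.08% of all named genes. Between ages in control cells 1 of 48 passed higher at P6 and 1 lower, against 2.64% of all. In Kir2.1 cells 1 of 48 passed, higher at P6, against 0.956%. Capza2, a subunit of the capping protein that ends dynactin's actin-like filament and caps actin in all cells, rose from -4.15, -5.54, -6.13 and -3.99 in P6 control pools to -1.24, -1.47, -2.42 and -1.67 in P6 Kir2.1 pools. The groups did not overlap (3.25, SE 0.49, adjusted p = 0.00691 by limma). With the P6 arrays fitted alone the change was the same (adjusted p = 0.125), without the 4 pools with high microglial or vascular markers it was 2.72 (0.0928), and with normexp it was 1.99 (0.00378). P3 pools lay between -3.38 and -2.11, with a Kir2.1 change of -0.13 (SE 0.49), and the interaction was 3.38 (SE 0.69, adjusted p = 0.0903). In control cells Capza2 was lower at P6 than at P3 (-2.42, SE 0.49, adjusted p = 0.0196), and this age call was lost with the control arrays alone (0.095) and without P3 control pool 1 (0.0569), pool 2 (0.0582) or pool 3 (0.0644).

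Apba1, or Mint1, which links Kif17 to its cargo, rose with age in control cells, from -5.78, -4.51, -7.13 and -6.07 at P3 to -2.40, -1.94, -3.12 and -2.47 at P6 (3.40, SE 0.54, adjusted p = 0.00596, and 1.69 with normexp). Spag9, or JIP4, a scaffold between kinesin-1 and dynein, rose with age in Kir2.1 cells from between -4.29 and -3.85 to between -2.57 and -2.13 (1.74, SE 0.34, adjusted p = 0.031), and by 1.33 in controls (adjusted p = 0.0541). The Spag9 call is weak: it was lost without any 1 of the 8 Kir2.1 pools (adjusted p 0.052 to 0.085). Rhot2, or Miro2, which anchors motors to mitochondria, stood lower with Kir2.1 at both ages, from -0.24 to 0.82 in P6 controls against -2.77 to -1.10 in P6 Kir2.1 pools (-2.19, SE 0.66, adjusted p = 0.108), with a mean over both ages of -1.98 (SE 0.47, adjusted p = 0.0765). The P3 pools overlapped, at -0.93, -0.30, -1.31 and -1.34 in controls and -2.53, -1.12, -2.18 and -5.11 with Kir2.1, and without Kir2.1 pool 4 the Rhot2 change at P3 was -0.98 instead of -1.77. Ndel1, which loads the dynein regulator Lis1, stood higher at P6 with Kir2.1 without overlap (0.94, SE 0.27, adjusted p = 0.0869). At P3 the lowest p values were those of Map7d2, a microtubule protein that recruits kinesin-1 (-1.48, SE 0.52, adjusted p = 0.596), Rhot2 (-1.77, SE 0.66, adjusted p = 0.627) and Apba1 (1.30, SE 0.54, adjusted p = 0.709, and 0.36 with normexp). Map7d2 was at 0.18 with the mean of its tested probes.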

How the data were processed

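Expression was measured on 16 one-colour Agilent arrays, 4 in each group, each of the pooled, PCR-amplified (30 cycles) cDNA of 10 cells, per the labels' protocols. In the deposited scanner tables each spot has a processed intensity, which Agilent Feature Extraction 10.7.3.1 had background-subtracted on a linear scale, per the file headers. The authors' deposited value table held a linear signal, which on all arrays equalled the processed intensity over its 75th percentile among gene spots (ratio of the sources 1). Its medians per array were 0.0395 to 0.13, it was not centred on genes, and it served as an alternative.

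Control spots and outliers were left out and spots of a probe averaged. Of 28116 probes with a RefSeq accession, 26582 were named through the GRCm38.p6 gene table. From log2 intensities the 75th percentile of the array was subtracted, taken over the 12103 probes that passed the background test on every array. A feature was tested where well above background on at least 4 arrays, with the brightest probe standing for its gene. This gave 21070 features, 12035 named genes and 9035 unnamed probes. limma 3.58.1 (lmFit and eBayes, R 4.3.3) was fitted to all arrays together, two-sided, with 12 residual degrees of freedom, and p-values were adjusted by Benjamini-Hochberg over all features, threshold 0.05. The fit was tested on simulated data. No gene spot was saturated, and the highest correlation between arrays was 0.881, so all pools were kept as separate samples.

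Kir2.1 was set against control at P3, at P6 and for their mean, P6 against P3 in each treatment, and the interaction was tested. Full values were given for members past the threshold, with non-overlapping groups or among the 5 lowest p of a contrast, for 20 fixed members, and for the 4 mitotic kinesins seen on most arrays; of the adaptors, for those past the threshold or with the 3 lowest p. The members and lists were chosen with earlier results of these data known. The scanner tables used here have no mean signal, so the normexp alternative (offset 50) was run on the median signal and median background. Replicate numbers follow the slide column. Deviations from group means of same-numbered arrays correlated between -0.0282 and 0.0308, so the numbers were not taken to pair the pools. Coordinates are those of RefSeq promoters; no coordinate of the array files was used.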

Additional observations from a re-analysis of the deposited data

Results flagged for a closer look

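In 28 motor genes, 112 groups of 4 pools were searched for a pool that stood far from the other 3, judged by its gap to the nearest pool as a share of the group's range. Chance alone marks about 1 group in 20, and 9 were found. In P6 control pool 1 stood high for Kif21a (-2.16 against -5.24 to -5.21, gap share 0.988) and for Kifc3 (-0.58 against -2.02 to -1.94, 0.948). Pool 4 of the same group was high for Kif1a (3.83 against 3.18 to 3.25, 0.885), and pool 2 was low for Kif1b (0.48 against 0.98 to 1.05, 0.877). In P3 Kir2.1 pool 2 was high for Kif26b (-4.09 against -9.48 to -8.87, 0.886). In P3 control pool 1 was low for Kif3b (-8.50 against -6.70 to -6.45, 0.88) and pool 3 low for Dctn3 (1.77 against 2.02 to 2.07, 0.835). In P6 Kir2.1 pool 4 was high for Kif5a (2.58 against 1.73 to 1.85, 0.867) and pool 2 high for Dynll1 (-1.40 against -4.21 to -3.77, 0.843).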

How the results depend on the processing

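Counts of motor genes past the threshold stayed at 0 under every alternative run for Kir2.1 against control at P3, for the mean of both ages and for the interaction. Kir2.1 against control at P6 gave 1 (Kif19a) with a replicate block, and 0 to 1 when each pool was left out. P6 against P3 in control cells gave 0 with normexp background correction, with a filter at 8 arrays, with the 2 groups alone and without the 4 P6 pools rich in microglial or vascular markers, and 0 to 1 when each pool was left out; that filter left Kif7 out. P6 against P3 in Kir2.1 cells gave 1 with normexp (Kif5c, adjusted p = 0.0395), with a replicate block (Kif19a, 0.0195) and with robust eBayes with trend (Kif5c, 0.0307), and 0 to 1 when each pool was left out (1 without P6 control pool 3, Kif5c, 0.0399). The block put Kif19a at P6 at an adjusted p of 0.0348; same numbers were not taken to pair the pools, and 4 of 16 arrays correlated best with their own number. With the mean of a gene's tested probes, the Dynll2 interaction reversed to -0.0091 and the Map7d2 change at P3 to 0.18. Rhot2 at P6 passed with normexp (0.0326) and without P3 Kir2.1 pool 4 (0.0309). Capza2 over both ages passed under 7 of 11 alternatives. The exclusion of the 4 P6 pools was chosen after seeing the data. Causes were not tested. Over all alternatives of the named genes, 1229 values kept their direction and their side of the threshold, 17 came to pass it, 23 no longer passed it and 2 reversed. Most of these results did not pass in the main fit, so keeping their side mostly means not passing again.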
